A study of Mus musculus with 4 samples.

Results

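The Hox genes of the mouse lie in 4 clusters, and all 39 of them were taken from the 53379 genes of the series by their symbols (Hox, a cluster letter from a to d and a number). The Hoxa cluster gave 11 genes, the Hoxb cluster 10, the Hoxc cluster 9 and the Hoxd cluster 9. Bulk RNA was measured in DKO741, a single *Terc*-/- line of mouse embryonic stem cells (mESCs) made from E14 cells by targeting the telomerase RNA gene on both alleles, in turn, with 1 construct. The line was harvested at population doubling 100 (PD100, before alternative lengthening of telomeres, ALT, was active) and at population doubling 800 (PD800, after ALT had become stable), with 2 libraries each. Both groups lack telomerase RNA and differ in time in culture and in ALT state together, so these cannot be told apart, and no wild-type or second line is compared here. Stocks were kept on mouse embryonic fibroblasts, whereas RNA was taken from cells grown without feeders.

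Hox genes encode transcription factors that bind DNA through the homeodomain, which is encoded by a stretch of each gene called the homeobox. In the embryo they are switched on one after another along each cluster, from the low numbers to the high numbers, and this order gives cells their position along the body axis. In undifferentiated mESCs the clusters are held nearly silent by Polycomb complexes, and signals such as retinoic acid, FGF and WNT switch them on when cells differentiate.

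Hox RNA was scarce in all 4 libraries, which bounds what can be said of it. The total expected count (the estimated number of read pairs per gene, summed) was 38492149 and 32454121 in the PD100 replicates 1 and 2, and 37460820 and 33362106 in the PD800 replicates. Of these, 329, 227, 326 and 249 counts fell on the 39 Hox genes together. *Terc* had 1, 0, 0 and 0 counts. A floor of 3 counts corresponded to 0.0743 to 0.0934 CPM (counts scaled by library size with edgeR's TMM factors), and floors and intervals here cover counting error only. The cells carried the markers of mESCs, with *Pou5f1* at 485 ± 25.9 CPM at PD100 and at 618 ± 23.4 CPM at PD800 (SD, n = 2). Of 8 such markers 3 were called higher and 0 lower by the edgeR test described with the Hox genes (*Nanog*, *Esrrb* and *Klf4*, with log2 fold changes of 2.32, 2.06 and 2.84), against 6.28% and 8.81% of all tested genes, and the summed level was 1691 and 2042 CPM at PD100 and 3346 and 3467 CPM at PD800.

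Because the Hox genes are copies of one another, the sequence that they share is shown first, for *Hoxb9*, the gene called higher, and *Hoxc6*, which had one of the lowest log2 fold changes among the tested genes. The lines give the homeobox, 180 bases in each gene, 5′ to 3′ on the gene's own strand, from the GENCODE M21 transcripts (GRCm38). Capitals mark the 18 bases that encode the core of the recognition helix, the part of the homeodomain that enters the groove of DNA.
*Hoxb9*: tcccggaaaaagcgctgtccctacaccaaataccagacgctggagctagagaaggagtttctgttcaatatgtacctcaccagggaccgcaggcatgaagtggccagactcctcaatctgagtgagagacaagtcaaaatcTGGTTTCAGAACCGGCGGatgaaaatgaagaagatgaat
*Hoxc6*: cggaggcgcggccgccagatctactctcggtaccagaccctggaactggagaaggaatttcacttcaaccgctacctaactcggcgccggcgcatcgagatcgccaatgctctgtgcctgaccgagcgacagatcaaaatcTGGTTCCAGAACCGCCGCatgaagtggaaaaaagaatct
These stretches lie in exon 2 of each gene, at chr11:96274659-96274838 (plus strand) for *Hoxb9* and chr15:103010754-103010933 (plus strand) for *Hoxc6*. Both were identical at 60.6% of the bases. *Hoxb9* was closer to the genes of its own number in the other clusters, with 84.4% of bases shared with *Hoxd9*, 83.9% with *Hoxc9* and 81.7% with *Hoxa9*. The longest exact run shared by the transcripts of 2 Hox genes at separate places was 52 bases, between *Hoxa6* and *Hoxb4*, and no such run reached the length of a read. Of the 156 Hox values (39 genes in 4 libraries), 152 were whole numbers within 0.005, so that few reads had been divided between genes. The 4 values that were not whole belonged to *Hoxb3*, *Hoxd3*, *Hoxd4* and *Hoxd11*, whose exons overlap those of an annotated neighbour on either strand.

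The level of the family as a whole was low and similar in the 2 groups. Together the 39 genes stood at 8.15 and 6.80 CPM at PD100 and at 9.07 and 7.75 CPM at PD800, so that the groups overlapped. Without *Hoxb9* the sums were 6.94 and 6.08 CPM at PD100 against 5.65 and 5.26 CPM at PD800. These groups did not overlap. In TPM, which counts transcripts per length, the 39 genes summed to 3.51 and 2.61 at PD100 and to 2.92 and 2.39 at PD800, so the direction of the family's sum depended on the scale while the groups overlapped on both. Every one of the 39 genes had a count in at least 1 library, but 29 had fewer than 10 counts in every library and 9 had at most 3.

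**Figure D1:**
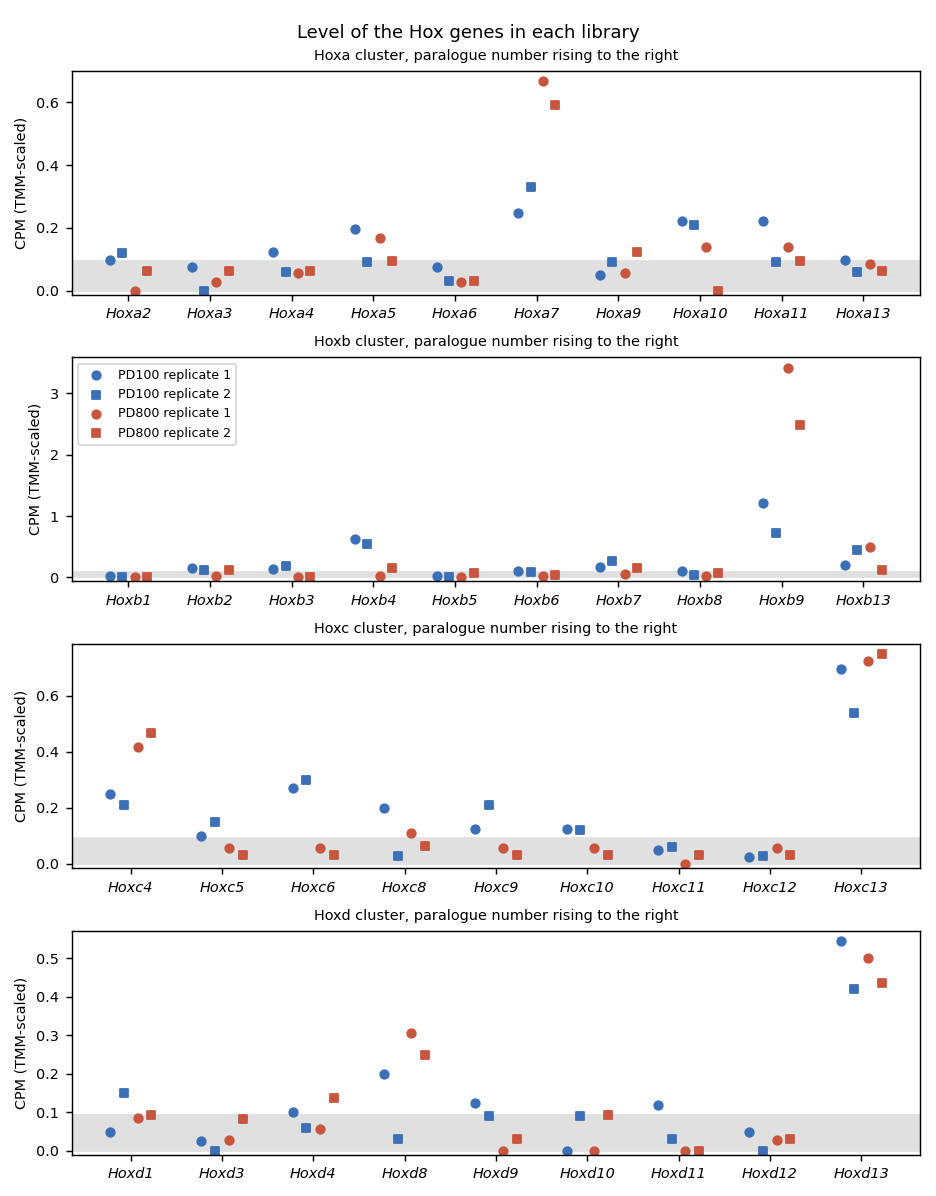
Level of the Hox genes (CPM, TMM-scaled) in each of the 4 libraries, with 1 panel per cluster, its own vertical scale and the gene numbers rising to the right; circles are replicate 1 and squares replicate 2, blue is PD100 and red PD800, and the grey band reaches the highest floor, 0.0934 CPM. *Hoxb9* stands above all others at PD800 (3.42 and 2.49 CPM), *Hoxc6* lies above the band in both PD100 libraries and within it in both PD800 libraries, and most other genes lie in or near the band.

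Levels of different genes can be compared only per length, in TPM (the authors' measure of transcript number, which takes the length of each gene into account). On that scale *Hoxb9* was first with a mean of 0.565 TPM over the 4 libraries, against 0.198 TPM for *Hoxc13*, 0.170 for *Hoxa7* and 0.140 for *Hoxd13*. Over the libraries *Hoxb9* (0.21 to 0.96 TPM) and *Hoxc13* (0.16 to 0.23 TPM) overlapped, and so did *Hoxc13* and *Hoxa7* (0.10 to 0.23 TPM). Even the mean of *Hoxb9* lay above only 25.9% of all tested genes, whose median was 2.79 TPM. At the other end, *Hoxb1*, a hindbrain gene and a classical early target of retinoic acid, had a single count in PD100 replicate 1 and none elsewhere.

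Of the 39 genes, 9 passed edgeR's filter on low counts and were tested, and 1 of them was called. *Hoxb9*, a gene of the thoracic body axis, rose at PD800, and no Hox gene was called lower. A call needed a fold change over 2 and an adjusted p under 0.01 in edgeR (its quasi-likelihood test, with p-values adjusted after Benjamini and Hochberg over all 19148 tested genes). At that rule 6.28% of all tested genes were called higher and 8.81% lower, so 1 higher gene in 9 (11.1%) and 0 lower genes in 9 are not set apart from the rest of the genes. At an edgeR adjusted p under 0.05 with no fold threshold, 4 of the 9 passed (44.4%), 2 higher and 2 lower, against 45.6% of all tested genes. By unadjusted p under 0.05, 5 of the 9 passed, against 53.3% of all tested genes. The median log2 fold change of the 9 was 0.05, against 0.01 for all tested genes. A gene seen mainly in 1 group can pass the filter through that group alone. *Hoxb4* and *Hoxc6* did so through PD100 cells, *Hoxc4* through PD800 cells and *Hoxa7* partly through PD800 cells. These 9 tested genes therefore do not stand for the 39.

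*Hoxb9* lies on chromosome 11 from 96271457 to 96276595 (GRCm38), near the posterior end of the Hoxb cluster. Its expected counts were 49 and 24 in the PD100 replicates 1 and 2 and 123 and 80 in the PD800 replicates. The groups did not overlap, and the lower PD800 library had more counts than the higher PD100 library. The level rose from 0.966 ± 0.350 CPM to 2.96 ± 0.659 CPM (SD, n = 2). The log2 fold change was 1.60 with a standard error of 0.31 (edgeR adjusted p = 0.00837), larger than the spread between replicates. Without PD800 replicate 1, the library with the most *Hoxb9* counts, it was 1.35 with an adjusted p of 0.0351 by the same edgeR test, and the call was lost. In such a fit the group is left with 1 library, which is assumed to vary like the libraries of the other group. The other 3 genes of number 9 had few counts, with 2, 3, 2 and 4 for *Hoxa9*, 5, 7, 2 and 1 for *Hoxc9* and 5, 3, 0 and 1 for *Hoxd9*, in the same order of libraries. Together these 3 genes stood at 0.297 and 0.389 CPM at PD100 and at 0.111 and 0.187 CPM at PD800. In bulk RNA, more cells that express a gene and more RNA per cell cannot be told apart.

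*Hoxb4*, a gene of the neck region that is also known for expanding blood stem cells, had the lowest log2 fold change of the 9 tested genes, within a standard error of that of *Hoxc6*. Its counts were 25 and 18 at PD100 and 1 and 5 at PD800, from 0.579 ± 0.0566 CPM to 0.0917 ± 0.0904 CPM (SD, n = 2). The libraries of the 2 groups lay well apart, and 1 of the PD800 libraries was under the floor. The log2 fold change of -2.67 (standard error 0.60) missed the threshold, with an adjusted p of 0.0136 by edgeR's quasi-likelihood test. It depended on single libraries, with -4.23 (adjusted p = 0.00759) without PD800 replicate 2 and -1.88 (adjusted p = 0.0526) without PD800 replicate 1 by the same edgeR test. Without PD100 replicate 2 the adjusted p was 0.00459 and without PD100 replicate 1 it was 0.0104 in edgeR, while DESeq2 on all libraries gave 0.0292. With no filter on low counts the edgeR adjusted p was 1.86e-05, a call. In that setting 1639 of all 32384 tested genes were called higher and 2237 lower.

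*Hoxc6*, on chromosome 15 from 102998257 to 103011881 and a gene of the upper thorax, had 11 and 10 counts at PD100 and 2 and 1 at PD800. Both PD800 libraries were under the floor of 3 counts, and both PD100 libraries were above it. The ratio of PD800 to PD100 in the counts, scaled for depth, was 0.155 (95% exact interval 0.0296 to 0.518). The log2 fold change was -2.60 with a standard error of 0.57 (edgeR adjusted p = 0.0126), which missed the threshold as well. With no filter on low counts the adjusted p was 0.00737 in edgeR, a call, and with DESeq2 it was 0.118.

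Markers of fibroblasts and of primitive endoderm were lower at PD800, as were the counts of *Hoxb4* and *Hoxc6*. Of 10 fibroblast markers 8 were tested and 5 were called lower, against 8.81% of all tested genes (6.28% higher), with summed levels of 93.1 and 120 CPM at PD100 and 24.6 and 24.9 CPM at PD800. *Col1a1*, among those called, had 526 and 815 against 70 and 81 counts. *Dcn*, which was not called, had 23 and 13 against 6 and 0, and *Lum*, which was not tested, had 0, 0, 0 and 1. All 7 markers of primitive endoderm were called lower, from sums of 146 and 126 CPM to 10.5 and 10.8 CPM, and *Pdgfra* stands in both lists. Of 8 markers of primitive streak and mesoderm 6 were tested, with 1 called higher (*Eomes*) and 1 lower (*Kdr*), and of 7 neural markers 5 were tested, with 3 higher and 1 lower. The part of these cell types in the counts of *Hoxb4*, *Hoxc6* and the other Hox genes was not tested.

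*Hoxa7*, on chromosome 6 from 52214491 to 52221854, and *Hoxc4* were higher in both PD800 libraries than in either PD100 library, without a call. *Hoxa7*, a thoracic gene, had 10 and 11 counts at PD100 and 24 and 19 at PD800, with a log2 fold change of 1.13 with a standard error of 0.34 (edgeR adjusted p = 0.0370). Whether the counting used the strand is not given in the sources used here, and the exons of *Hoxa7* overlap those of the antisense transcript *Hoxaas3*, which had 2, 0, 1 and 0 counts itself. *Hoxc4*, a cervical gene at the anterior end of its cluster, had 10 and 7 counts at PD100 and 15 and 15 at PD800. Its log2 fold change of 0.93 (standard error 0.36) had an adjusted p of 0.0823 by the same edgeR test. The gene passed the filter on low counts through PD800 alone, the group in which it was higher.

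The tested genes of number 13, the most posterior of the family, showed small estimates. *Hoxc13* had 28 and 18 counts at PD100 against 26 and 24 at PD800 (log2 fold change 0.24, standard error 0.29), and *Hoxd13* had 22 and 14 against 18 and 14 (-0.05, standard error 0.33). *Hoxb13* had 8 and 15 against 18 and 4, so that its replicates differed more than its groups, and its log2 fold change of 0.02 had a standard error of 0.69. The sign of *Hoxd13* and *Hoxb13* changed with single libraries left out or with the scale. For the depth-scaled ratio of PD800 to PD100 counts, the 95% exact intervals were 0.773 to 1.80 for *Hoxc13*, 0.579 to 1.59 for *Hoxd13* and 0.551 to 1.94 for *Hoxb13*. These intervals include no change and cover counting error only. For *Hoxb13*, whose replicates differed, the log2 fold change reached -1.32 without PD800 replicate 1.

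Seen over all 39 genes, the 2 groups did not overlap in CPM for 20 genes, 7 of them higher and 13 lower at PD800, and overlapped for 19. That is 17.9% higher and 33.3% lower, against 28.2% and 28.5% of all genes with a count. The mean CPM was lower at PD800 for 25 genes and higher for 14. The 7 higher genes were *Hoxa7*, *Hoxb9*, *Hoxc4*, *Hoxc12*, *Hoxc13*, *Hoxd3* and *Hoxd8*. The 13 lower genes were *Hoxa2*, *Hoxa10*, *Hoxb3*, *Hoxb4*, *Hoxb6*, *Hoxb7*, *Hoxc5*, *Hoxc6*, *Hoxc9*, *Hoxc10*, *Hoxc11*, *Hoxd9* and *Hoxd11*. Most of these rest on a handful of counts, and no order between single genes can be read from them.

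By cluster, the direction of the Hoxb sum rested on 1 gene, *Hoxb9*. The sum over the Hoxb cluster was 2.73 and 2.40 CPM at PD100 and 4.09 and 3.21 CPM at PD800. Without *Hoxb9* it was 1.52 and 1.68 CPM at PD100 and 0.668 and 0.716 CPM at PD800, lower in both PD800 libraries. In TPM the Hoxb sums overlapped, with 1.04 and 0.88 at PD100 and 1.22 and 0.93 at PD800, whereas without *Hoxb9* they were 0.62 and 0.67 against 0.26 and 0.26. The Hoxa sum (2.38 and 1.89 against 2.45 and 1.93 CPM) and the Hoxd sum (1.21 and 0.869 against 1.00 and 1.15 CPM) overlapped between groups. The Hoxc sum was 1.83 and 1.65 CPM at PD100 and 1.53 and 1.46 CPM at PD800, lower in both PD800 libraries by a margin close to the spread between replicates. Sums over chosen members were not tested.

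**Figure D2:**
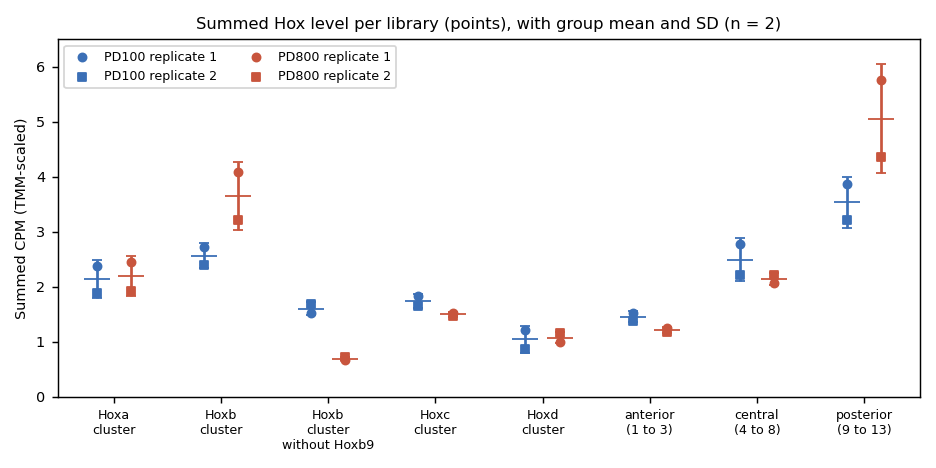
Summed level (CPM, TMM-scaled) of the Hox genes of each cluster and of each range of gene numbers; points are libraries (circles replicate 1, squares replicate 2, blue PD100, red PD800), and bars give the group mean and SD (n = 2). The Hoxb sum is higher in both PD800 libraries (4.09 and 3.21 CPM) than at PD100, and lower without *Hoxb9* (0.668 and 0.716 CPM), while in TPM the Hoxb sums of the groups overlap.

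Grouped by position, the genes numbered 1 to 3, which mark the head and hindbrain end, summed to 1.52 and 1.38 CPM at PD100 and 1.25 and 1.17 CPM at PD800. Those numbered 4 to 8, of the neck and chest, gave 2.77 and 2.22 against 2.06 and 2.22 CPM. Those numbered 9 to 13, of the trunk and tail, gave 3.86 and 3.21 against 5.76 and 4.36 CPM, and overlapped in TPM (1.47 and 1.10 against 1.74 and 1.22). The higher posterior sum in CPM was that of *Hoxb9*, since the other 15 posterior genes summed to 2.65 and 2.49 CPM at PD100 and to 2.34 and 1.87 CPM at PD800.

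Within the Hoxb cluster, which runs from *Hoxb13* to *Hoxb1* on the plus strand of chromosome 11 (96194316 to 96368256), the 8 genes from *Hoxb1* to *Hoxb8* together had 53.4 and 41.0 counts at PD100 and 6 and 19 at PD800. Both PD800 libraries were lower, and they differed from each other more than the PD100 libraries did. Without *Hoxb4* the sums were 28.4 and 23 against 5 and 14. This range of genes was chosen after its values were seen. Among them, *Hoxb3*, a hindbrain and neck gene, had 5.35 and 6 counts at PD100 and 0 in both PD800 libraries. As counted, that is at least 1.77-fold lower against the floor of 3 counts per library. Its exons overlap those of the antisense transcript *Hoxb3os*, which had 2.65 and 0 counts at PD100 and 3 and 3 at PD800. Neither gene had a whole number in PD100 replicate 1, so reads may have been divided between them, and the bound depends on that division. *Hoxb7* had 7 and 9 against 2 and 5 counts, *Hoxb6* 4 and 3 against 1 and 1, *Hoxb8* 4 and 1 against 1 and 2, *Hoxb2* 6 and 4 against 1 and 4, and *Hoxb5* 1 and 0 against 0 and 2. *Hoxb8* lies 5.31 kb from *Hoxb9*, and its counts showed no rise.

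On the posterior side of *Hoxb9* lay *Gm53*, the transcript with the most counts inside any of the clusters, Hox genes included. It is a long intergenic noncoding RNA on the plus strand from 96251105 to 96264868, which ends 6.59 kb before *Hoxb9* and starts 53.7 kb after *Hoxb13*. It had 129 and 118 counts at PD100 and 586 and 485 at PD800, from 3.37 ± 0.240 CPM to 15.7 ± 0.855 CPM (SD, n = 2). Its libraries were far apart, with a log2 fold change of 2.22 with a standard error of 0.11 (edgeR adjusted p = 8.51e-05). Of the 46 annotated genes inside the clusters that are not Hox genes, 29 had no count, 43 had at most 3 counts in every library, and all 7 miRNA genes were at 0. Only 2 of the 46 could be tested, and *Gm53* was the 1 called, against 6.28% of all tested genes called higher. The 10 long noncoding RNAs listed by name, among them *Hotair* (1, 2, 0 and 0 counts) and *Hottip* (0 in every library), all had under 10 counts in every library, as had *Evx1* and *Evx2*, the homeobox genes beside the Hoxa and Hoxd clusters.

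**Figure D3:**
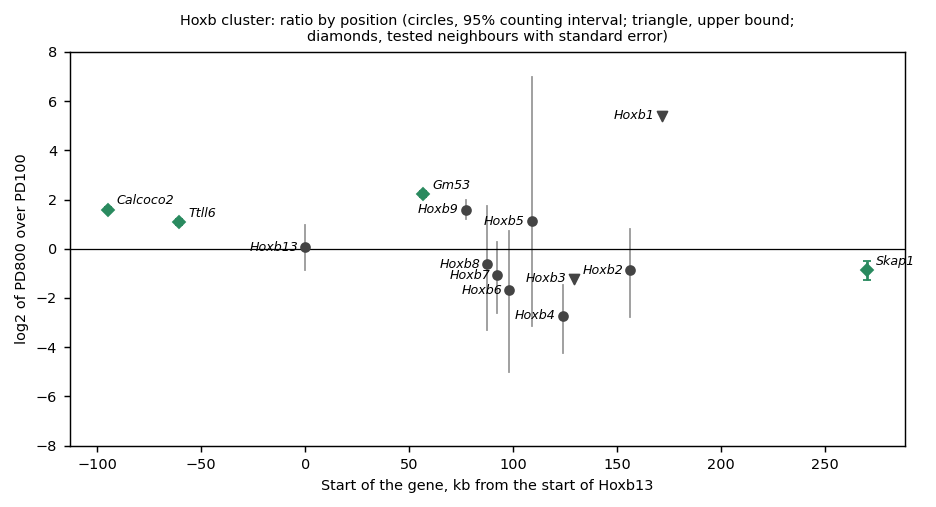
Ratio of PD800 to PD100 (log2 scale) for the Hoxb genes and their neighbours, against the start of each gene in kb from the start of *Hoxb13*; grey circles with bars are depth-scaled count ratios with 95% exact intervals, triangles are upper bounds of genes at 0 at PD800, and green diamonds with bars are edgeR fold changes with standard errors. *Calcoco2*, *Ttll6*, *Gm53* and *Hoxb9* lie above 0, *Hoxb13* lies near 0 with a wide interval, and *Hoxb4* lies lowest.

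The genes outside the clusters moved in both directions. Of the 40 flanking genes, the 5 nearest tested protein-coding genes on each side of each cluster, 4 were called higher and 1 lower by edgeR's quasi-likelihood test, against 6.28% and 8.81% of all tested genes. Next to the posterior end of the Hoxb cluster, *Ttll6*, a tubulin-modifying enzyme, had 228 and 195 counts at PD100 and 468 and 360 at PD800 (log2 fold change 1.08, standard error 0.12, edgeR adjusted p = 0.000946). Beyond it *Calcoco2*, an autophagy receptor, had 632 and 621 against 1807 and 1676 counts (1.58, standard error 0.10, edgeR adjusted p = 0.000171). At the anterior end *Skap1*, a T cell adaptor, had 16 and 14 against 9 and 6 counts and was not called. The others called were *Chrna1* (log2 fold change 1.59), 1088 kb from the Hoxd cluster, *Ttc30b* (1.18), 1171 kb from it, and *Creb5* (-4.39), 1026 kb from the Hoxa cluster. Over the 40 tested genes nearest to each cluster, Hox genes left out, the median log2 fold change was 0.03 for the Hoxa, -0.40 for the Hoxb, -0.25 for the Hoxc and 0.19 for the Hoxd region, so *Hoxb9* and *Gm53* were higher in a region whose median was below 0. The nearest neighbours of the other clusters, *Skap2* and *Hibadh* for Hoxa, *Calcoco1* and *Smug1* for Hoxc and *Lnpk* and *Mtx2* for Hoxd, were not called and had log2 fold changes from -0.25 to 0.97.

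In the Hoxc cluster (chromosome 15, 102921103 to 103036852) the 6 genes from *Hoxc5* to *Hoxc11* had lower sums at PD800. The 6 together had 35 and 29 counts at PD100 and 12 and 7 at PD800, and this range, too, was chosen after its values were seen. Beside *Hoxc6*, *Hoxc10* had 5 and 4 against 2 and 1 counts, *Hoxc5* 4 and 5 against 2 and 1, *Hoxc11* 2 and 2 against 0 and 1, and *Hoxc8*, whose replicates differed, 8 and 1 against 4 and 2. The transcripts annotated for *Hoxc5* and *Hoxc10* overlap in exons on the same strand, so their counts are not independent. *Hoxc12* had 1 or 2 counts in every library. The Hoxc cluster ends 0.862 Mb from the last annotated base of its chromosome. For the Hoxb, Hoxa and Hoxd clusters this distance is 25.6, 97.3 and 107 Mb. The paper reports copy-number changes near the long-arm ends of chromosomes after ALT activation. The DNA copy number of the Hoxc cluster was not tested.

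In the Hoxa cluster (chromosome 6, 52155590 to 52260880) and the Hoxd cluster (chromosome 2, 74668310 to 74765142) no stretch stood out. Of the untested Hoxa genes, *Hoxa10*, a gene of the lumbar region and the uterus, had 9 and 7 counts at PD100 and 5 and 0 at PD800, and its depth-scaled ratio of 0.339 had a 95% exact interval of 0.0970 to 0.967. *Hoxa2* had 4 and 4 against 0 and 2 counts, while *Hoxa3*, *Hoxa4*, *Hoxa5*, *Hoxa6*, *Hoxa9*, *Hoxa11* and *Hoxa13* overlapped between groups, with 0 to 9 counts. In the Hoxd cluster *Hoxd11* had 4.80 and 1 against 0 and 0 counts and *Hoxd9* 5 and 3 against 0 and 1. *Hoxd8* had 8 and 1 against 11 and 8 counts, yet its TPM was 0.23 and 0.01 at PD100 and 0.08 and 0.09 at PD800, so its direction depended on the scale. *Hoxd1*, *Hoxd4*, *Hoxd10* and *Hoxd12* overlapped between groups, with 0 to 5 counts, and *Hoxd3* had 1 and 0 against 1 and 2.63.

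Hox proteins bind DNA together with TALE homeodomain cofactors, and the listed cofactors passed the filter that most Hox genes missed. All 9 of them were tested, and 1 was called higher and 0 lower (6.28% and 8.81% of all tested genes), with a median log2 fold change of 0.11 against 0.01 for all tested genes. The called gene was *Pknox2* (40 and 30 counts against 84 and 74), with a log2 fold change of 1.29 with a standard error of 0.21 (edgeR adjusted p = 0.00396). *Pbx2* (0.64, adjusted p = 0.00677) passed the p threshold of that edgeR test and not the fold threshold. Among the caudal and ParaHox genes, relatives of the Hox genes of which some act upstream of them, 4 of 6 were tested and 1 was called. *Cdx2*, which binds the Hox clusters in posterior cells and marks trophoblast, fell from 55 and 37 counts to 15 and 16 (log2 fold change -1.44, standard error 0.28, adjusted p = 0.00843 by edgeR's test), while its relative *Cdx1* had 17 and 12 against 22 and 21 counts and was not called.

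Of the 18 genes of the retinoic acid pathway, 16 were tested, 1 was called higher and 3 lower by edgeR's quasi-likelihood test, with a median of -0.07 (all tested genes: 6.28% higher, 8.81% lower). *Cyp26a1*, which breaks retinoic acid down and is itself one of its targets, fell from 286 and 254 counts to 7 and 7 (log2 fold change -5.13, standard error 0.21, edgeR adjusted p = 5.37e-05). *Stra6*, the cell's receptor for vitamin A uptake, fell from 73 and 40 counts to 8 and 4 (-3.08, standard error 0.41, edgeR adjusted p = 0.00194), and *Rdh10*, which makes retinaldehyde, from 279 and 207 to 76 and 112 (-1.23, standard error 0.24, edgeR adjusted p = 0.00862). *Aldh1a3*, which makes retinoic acid, rose from 241 and 181 to 526 and 465 counts (1.35, standard error 0.10, edgeR adjusted p = 0.000264). The most abundant receptors were not called, with a log2 fold change of 0.17 for *Rara* and -0.48 for *Rarg*.

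Of the 11 posterior signals and factors, 10 were tested, 2 were called higher and 1 lower by edgeR's quasi-likelihood test (median -0.31), beside 6.28% and 8.81% of all tested genes. *Nkx1-2*, a marker of the progenitors that build the trunk, rose from 13.9 and 6 counts to 67 and 52 (log2 fold change 2.68, standard error 0.34, edgeR adjusted p = 0.00166). *Fgf4*, a growth factor that mESCs secrete, rose from 77.9 ± 3.74 to 245 ± 4.82 CPM (SD, n = 2; log2 fold change 1.66, adjusted p = 6.95e-05 by edgeR). *Lin28b*, an RNA-binding protein of early embryos, fell from 2048 and 1685 to 662 and 640 counts (-1.40, adjusted p = 0.000114 by edgeR). Brachyury (*T*) had 37 and 14 against 10 and 13 counts and *Wnt3a* 29 and 30 against 12 and 6, and neither was called.

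Polycomb subunits hold Hox clusters silent and MLL complex subunits keep them active, and all those listed were tested. Of 15 Polycomb subunits 0 were called higher and 1 lower (median 0.22), against 6.28% and 8.81% of all tested genes. That gene was *Ezh1*, a histone H3 methyltransferase subunit, at 34.6 ± 0.294 CPM at PD100 and 16.9 ± 0.720 CPM at PD800 (SD, n = 2; log2 fold change -1.03, adjusted p = 0.000281 by edgeR). *Ezh2*, *Eed* and *Suz12* had log2 fold changes of 0.18, 0.22 and -0.50 without a call. Of the 7 MLL complex subunits, *Wdr5* was called higher (1.02, adjusted p = 0.000240) and *Ash2l* lower (-1.01, adjusted p = 0.000360) by the same edgeR test, both just past the fold threshold.

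**Figure D4:**
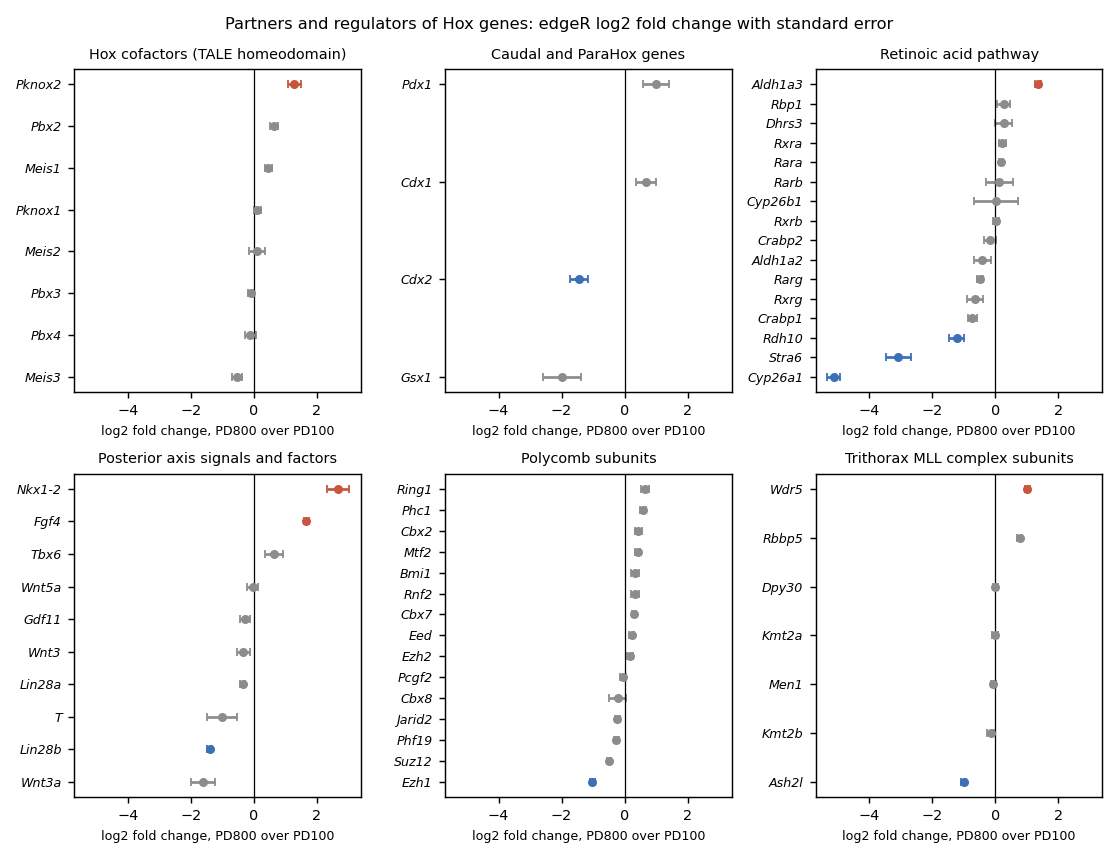
edgeR log2 fold change (PD800 over PD100) with its standard error for the tested genes of the 6 lists of Hox partners and regulators; red genes were called higher, blue genes lower and grey genes were not called. *Cyp26a1* lies lowest at -5.13, *Nkx1-2* highest at 2.68, and the Polycomb and MLL subunits stay between -1.03 and 1.02.

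Promoter sequence was at hand for 22 of the 39 Hox genes, in 24 entries of the RefSeq table (GRCm38.p6). The 250 bases before the start held a median of 12.5 CG dinucleotides (2 to 35), against 6 over all 32851 promoters of that table. CG-rich promoters are the usual landing sites of Polycomb complexes. *Hoxb4* and *Hoxa7* are shown because they lay on opposite sides of 0 in the test and have an entry, which *Hoxb9* and *Hoxc6* do not. Capitals mark CG dinucleotides.
*Hoxb4*: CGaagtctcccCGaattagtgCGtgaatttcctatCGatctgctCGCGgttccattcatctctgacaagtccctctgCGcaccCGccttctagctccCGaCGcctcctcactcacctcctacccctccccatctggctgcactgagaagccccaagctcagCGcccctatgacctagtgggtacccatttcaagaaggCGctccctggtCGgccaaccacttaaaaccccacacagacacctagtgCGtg
*Hoxa7*: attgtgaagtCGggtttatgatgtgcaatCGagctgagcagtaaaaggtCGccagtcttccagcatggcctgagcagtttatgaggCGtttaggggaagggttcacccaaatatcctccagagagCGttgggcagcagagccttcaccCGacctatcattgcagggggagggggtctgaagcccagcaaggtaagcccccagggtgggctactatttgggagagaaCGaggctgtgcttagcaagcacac
The *Hoxb4* sequence is chr11:96318017-96318266 on the plus strand, with 14 CG dinucleotides, and the *Hoxa7* sequence is chr6:52218574-52218823 on the minus strand, with 7. The letters TTTATG, the core that caudal factors such as CDX2 bind, occurred on either strand in 5 of the 24 Hox entries (20.8%) and in 10.8% of all promoters, and were present in the *Hoxa7* and not in the *Hoxb4* stretch. A pair of AGGTCA letters 5 bases apart, as retinoic acid receptors bind, occurred in none of the 24 entries and in 0.00913% of all promoters. At so low a share none was to be expected in 24 entries. Only exact letters within the 250 bases were searched, so the absence cannot tell whether these genes have such sites.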

How the data were processed

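Members and gene lists were chosen with earlier results of these data known. Paired reads were mapped by the authors with STAR 2.5.3a (mm10), and RSEM 1.3.0 gave the deposited expected count of each gene (whole-read estimates, not scaled for depth). The TPM values that the authors deposited were made by RSEM from the same reads, per unit of transcript length. The annotation release and the strand setting are not given in the sources used here. Positions came from GENCODE M21, in which all 39 Hox genes were found by gene ID without version.

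Expected counts were rounded and compared between PD800 and PD100 (groups from the titles, 2 libraries each) with edgeR 4.0.16 in R 4.3.3, using filterByExpr (minimum count 10), TMM factors and the quasi-likelihood test, adjusted by the Benjamini-Hochberg method over 19148 genes. The common dispersion was 0.0136. Calls needed a fold change over 2 at an adjusted p under 0.01. The methods call the libraries biological duplicates and the labels name no separate cultures, so p-values measure the spread between these libraries, which may be technical. An exact two-sided permutation test of 2 against 2 libraries cannot go below 0.333. Ratios of low counts carry 95% exact conditional intervals, which cover counting error only. Replicates differed beyond sampling noise (chi-square per degree of freedom 58.0 for PD100 and 9.13 for PD800). The rule for named genes took all Hox genes, every called gene of the lists and of the 5 nearest flanking genes on each side, the nearest flanking genes, and up to 4 more genes per list by highest mean CPM, while *T*, *Wnt3a*, *Ezh2*, *Eed*, *Hotair*, *Hottip* and the single markers were chosen after their values were seen. A few genes and sequences within this rule are not reported here, and the figures omit those genes, while counts, medians and sums over groups include them. Alternatives were DESeq2 1.42.0, its size factors, upper-quartile normalisation, other count filters, the replicate number as a block, limma 3.58.1 on log2(TPM + 1) and log2(TPM + 0.1), another threshold, and each library left out in turn.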

Additional observations from a re-analysis of the deposited data

How the results depend on the processing

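The single Hox call depended on the setting. *Hoxb9* remained higher than at PD100 under all 12 alternatives (log2 fold change 0.46 to 2.04) and was called under 9 of them. The number of Hox genes called higher was 0 with limma on log2(TPM + 1), 0 with limma on log2(TPM + 0.1), 2 at an adjusted p under 0.05 with no fold threshold, and 0 to 1 when single libraries were left out (0 without PD800 replicate 1). The number called lower was 0 in the report, 2 with no expression filter, 1 with limma on log2(TPM + 0.1), 2 at an adjusted p under 0.05, and 0 to 1 with libraries left out; DESeq2 also called 0. With the replicate number as a block (replicate block), *Hoxb9* was called higher (1.61, edgeR adjusted p = 0.000135) and 2 Hox genes lower, *Hoxb4* (-2.68, edgeR adjusted p = 0.00351) and *Hoxc6* (-2.60, edgeR adjusted p = 0.00891). Over all genes the block gave 1461 higher and 1956 lower calls against 1202 and 1686. With no expression filter, 1639 of all 32384 tested genes were called higher and 2237 lower. The labels do not say that a number marks a shared batch. The correlation across genes of the deviations of same-numbered libraries was 0.346. With 2 libraries per group this single value cannot decide whether the samples are paired.

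Over all genes, limma gave 297 higher and 920 lower calls on log2(TPM + 1), and 533 higher and 1779 lower on log2(TPM + 0.1), scales on which the median of all genes was -0.12 and -0.21. At an adjusted p under 0.05 there were 4224 and 4515. For the lists, *Gm53* and the flanking genes together (10 higher, 8 lower), limma gave 3 and 4 on log2(TPM + 1) and 5 higher on log2(TPM + 0.1), and libraries left out gave 5 to 8 lower, the 5 without PD800 replicate 1.

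Of the 92 alternative values of the 8 tested Hox genes named, 74 kept their direction and side of the threshold and 8 changed sign, all of them estimates that passed no threshold. *Hoxb13* was -0.04 with DESeq2, -0.00 with the replicate block, -0.02 on log2(TPM + 1) and -0.15 on log2(TPM + 0.1) by limma, and -1.32 to 0.66 with libraries left out. *Hoxd13* was -0.24 to 0.16 with libraries left out. The log2 ratio of the cluster sums on TPM was -0.29 for Hoxa (0.04 in CPM), 0.16 for Hoxb (0.51), -0.53 for Hoxc (-0.22) and -0.49 for Hoxd (0.05). The Hoxc ratio was -0.33 when scaled by total expected count. Without the highest member it was -1.21 for Hoxb and -0.56 for Hoxc. The causes were not tested. The filter on low counts left out 30 of the 39 genes, and without it all 39 were tested.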
